A study of Mus musculus with 18 samples.

Results

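The 9 genes described here, Trem2, Tyrobp, Cd9, Cd63, Gpnmb, Spp1, Lgals3, Fabp5 and Apoe, are markers of lipid-associated macrophages. They were taken by symbol from tables of 21899 gene IDs, in which all 9 were found and all 9 had enough counts to be tested in every comparison. RNA was sequenced from inguinal white fat, a depot under the skin, of male C57BL/6J mice given Lewis lung carcinoma (LLC) cells subcutaneously, or phosphate-buffered saline (PBS) as control. Fat was taken on day 7, which the labels name pre-cachexia, and on day 21, named cachexia, the stage of tumour-driven loss of fat and muscle. Each day has 4 PBS and 5 LLC libraries, so there are 4 groups and 18 libraries. The labels do not state the age of the mice, the number of cells injected or whether each library came from 1 animal. The labels name no genetic change in any group, and each library holds RNA of the whole tissue, not of sorted macrophages.

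Lipid-associated macrophages are macrophages that gather around dying or overfilled adipocytes, take up the lipid these release, and break it down in lysosomes. TREM2 is their lipid-sensing surface receptor. It carries no signalling tail of its own and signals through the adaptor DAP12, which Tyrobp encodes. The programme downstream holds tetraspanins (Cd9, Cd63), a lysosomal glycoprotein (Gpnmb), secreted matrix and sugar-binding proteins (Spp1, Lgals3), and proteins that carry fatty acids and cholesterol (Fabp5, Apoe). Several of these genes are also transcribed outside macrophages: Apoe, Fabp5, Cd63 and Cd9 are known from adipocytes or stromal cells as well, so they are less specific in whole fat than Trem2 and Tyrobp. A lower level in a bulk library cannot tell fewer cells of a type from less RNA per cell.

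Libraries held 14566155 to 18969387 counts assigned to genes. Levels are given below as CPM (counts scaled to library size), and as TPM (transcript share of a library), which correct for transcript length, where one gene is set against another. Adipocyte genes such as Adipoq and Plin1 were present in every library, but some libraries stood apart. At day 21, PBS libraries 1, 2 and 3 had low macrophage and progenitor or fibroblast genes. A pan-macrophage score, the mean log2 CPM of 12 general macrophage genes relative to all 18 libraries, was -1.49, -1.42 and -2.03 in these 3 libraries, against 0.72 in PBS library 4. Across the other 14 libraries that score lay between -0.59 and 1.08. Mast cell genes were low in all 4 PBS libraries of day 21, with scores made likewise of -2.53, -2.78, -2.64 and -1.87. In every other library the mast cell score was at least -0.036. LLC library 3 of day 21 had a B cell and lymph node score of 8.17, whereas that score reached at most 1.54 in the other libraries. LLC library 1 of day 21 had a cell cycle score of 3.46, against at most 1.45 elsewhere. Log2 fold changes of the markers that rest on 1 of these libraries are given with and without it. For the other gene lists described below, no fit without LLC library 1 or LLC library 3 of day 21 is given.

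By length-corrected level the 9 genes spanned a wide range. Apoe led in all 18 libraries with a median of 5893 TPM. Cd63 (363 TPM), Fabp5 (257 TPM), Lgals3 (136 TPM), Tyrobp (91.9 TPM) and Cd9 (86.5 TPM) followed. Gpnmb (23.7 TPM), Spp1 (13.8 TPM) and Trem2 (8.70 TPM) were the least abundant. Neighbours in this order changed places between libraries, except that Apoe never did: Trem2 ranked between 8 and 9, Spp1 between 6 and 9, and Fabp5 between 2 and 5.

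The sequences just upstream of 3 of the genes are shown because these 3 gave the widest swings between libraries. Of the 9 members, 7 had an entry in the RefSeq table of promoter windows (build GRCm38.p6), each running from 250 bases before to 50 bases after an annotated transcription start. Windows were searched on both strands for GAGGAAG, a core of the site for PU.1, the transcription factor that specifies myeloid cells, for TGACTCA or TGAGTCA, the site for AP-1 factors, and for CATGTG (M-box) and CACGTG (E-box), sites for MITF and TFE factors. Capitals mark the letters found.
Trem2 (chr17:48346151-48346450, + strand): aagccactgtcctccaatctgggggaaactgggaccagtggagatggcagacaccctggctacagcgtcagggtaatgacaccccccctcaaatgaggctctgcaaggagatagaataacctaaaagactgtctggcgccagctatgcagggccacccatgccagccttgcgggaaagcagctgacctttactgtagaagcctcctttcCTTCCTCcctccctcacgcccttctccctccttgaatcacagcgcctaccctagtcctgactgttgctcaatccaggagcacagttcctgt
Gpnmb (chr6:49036268-49036567, + strand): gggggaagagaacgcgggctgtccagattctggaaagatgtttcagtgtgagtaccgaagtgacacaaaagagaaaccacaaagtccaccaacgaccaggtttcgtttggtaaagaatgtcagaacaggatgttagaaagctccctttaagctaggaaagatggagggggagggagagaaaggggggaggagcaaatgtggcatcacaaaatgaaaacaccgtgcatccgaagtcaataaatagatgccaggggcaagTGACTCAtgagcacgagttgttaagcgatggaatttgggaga
Spp1 (chr5:104434861-104435160, + strand): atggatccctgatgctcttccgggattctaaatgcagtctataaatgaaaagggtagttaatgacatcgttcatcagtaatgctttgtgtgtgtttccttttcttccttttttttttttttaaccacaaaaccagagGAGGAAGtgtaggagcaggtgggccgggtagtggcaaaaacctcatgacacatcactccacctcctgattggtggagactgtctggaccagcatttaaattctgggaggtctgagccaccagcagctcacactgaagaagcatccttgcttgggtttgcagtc
The Trem2 window held the PU.1 letters on the reverse strand (CTTCCTC) from base 210, and the Spp1 window held them on the forward strand from base 138, counted from 1 at the 5' end. The Gpnmb window held the AP-1 letters from base 259. Among the members not printed, the Cd63 window also held the PU.1 letters and the Cd9 window held an M-box. No motif was found in the Lgals3 window or in the windows of Apoe, nor in the window of a second Spp1 start. Of all 32851 windows of this length, 13.6% held the PU.1 letters, 5.2% those of AP-1, 14.2% an M-box and 7.15% an E-box. These are matches of letters and were not tested for binding.

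**Figure D1:**
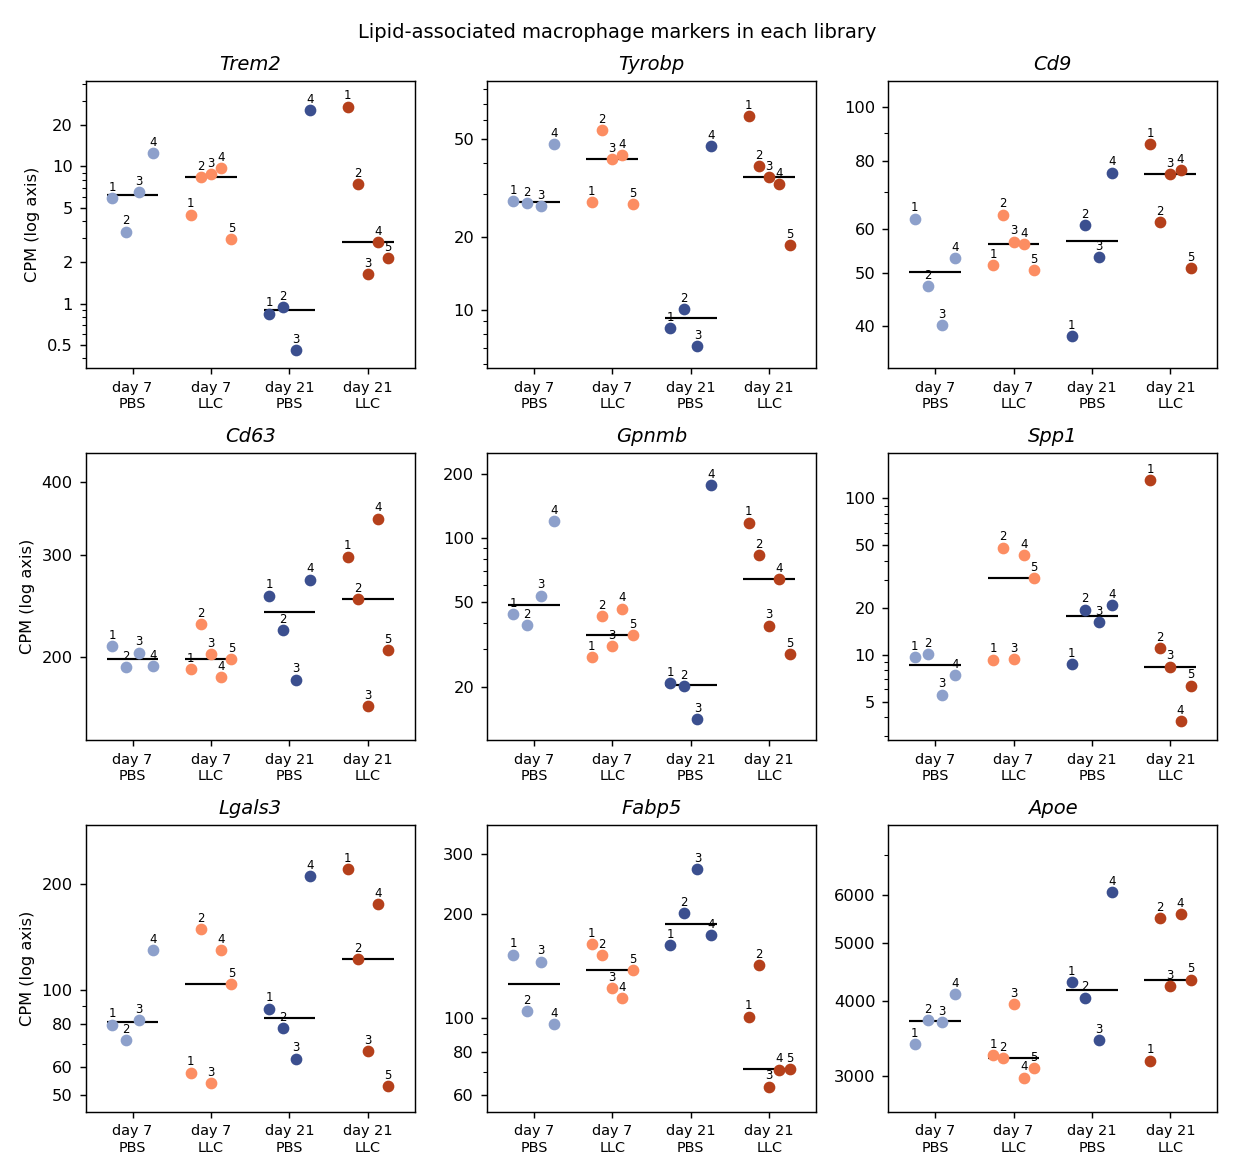
Level of each of the 9 genes in every library, in CPM on a log axis. Each point is a library, labelled with its number, and the bar is the group median. Trem2, Tyrobp and Gpnmb sit low in PBS libraries 1 to 3 of day 21, and all 4 PBS libraries lie above all 5 LLC libraries for Fabp5 at day 21.

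The first question the design poses is whether the markers differ between LLC and PBS within a day. At day 7 none of the 9 passed the edgeR quasi-likelihood test, where 0.00744% of 13445 genes did, and none passed in DESeq2, where 0.692% did. At an unadjusted p under 0.05 there were 2 members, Spp1 on the higher side and Gpnmb on the lower, where 8.51% of genes were. At day 21 none passed in edgeR either, where 0.0885% of 13564 genes did, and 1 was under an unadjusted p of 0.05 (23.3% of genes were): Fabp5, on the lower side. In DESeq2, where 11.4% of genes passed at day 21, Fabp5 passed. DESeq2 gave no p-value for Spp1 there. Groups did not overlap for 0 of 9 members at day 7 (2.52% of genes) and for 1 of 9, Fabp5, at day 21 (9.7% of genes). The median log2 fold change of the 9 was 0.13 at day 7 and 0.19 at day 21, against 0.00 and 0.02 over all genes tested.

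**Figure D2:**
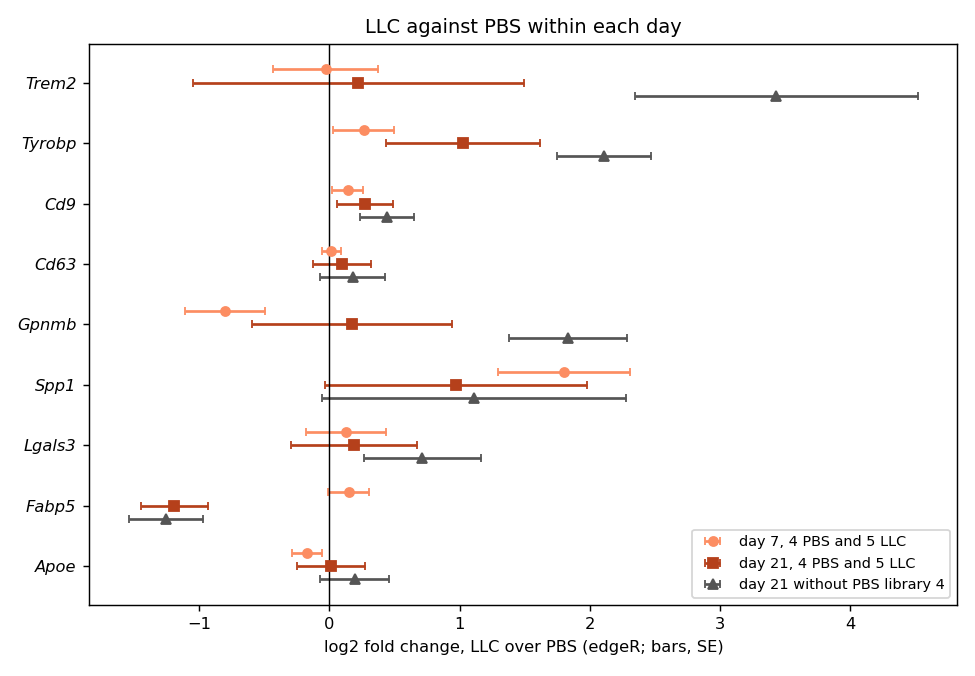
log2 fold change of LLC over PBS for each gene, with bars of 1 SE, at day 7, at day 21, and at day 21 without PBS library 4. Trem2 moves from 0.22 to 3.43, Tyrobp from 1.02 to 2.11 and Gpnmb from 0.18 to 1.83 when that library is left out, while Fabp5 stays near -1.2.

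The receptor gene Trem2 lies at chr17:48346401-48354147 (GRCm38, 5 exons). At day 7 its level was 5.83, 3.35, 6.47 and 12.51 CPM in the 4 PBS libraries and 4.45, 8.38, 8.75, 9.73 and 2.95 CPM in the 5 LLC libraries. The groups overlapped throughout, with a log2 fold change of -0.03 ± 0.40 (SE; adjusted p = 0.989 in edgeR). At day 21 the PBS libraries gave 0.843, 0.944, 0.456 and 25.7 CPM and the LLC libraries 27.3, 7.37, 1.64, 2.79 and 2.13 CPM. Each group thus held 1 library near 26 or 27 CPM, PBS library 4 and LLC library 1, far above the rest of its group. The 3 low PBS libraries rested on 14, 15 and 7 counts. With all libraries the log2 fold change was 0.22 ± 1.27 (edgeR adjusted p = 0.928). Without PBS library 4 it was 3.43 ± 1.09 (edgeR adjusted p = 0.0789), and all 5 LLC libraries lay above all 3 PBS libraries. Without LLC library 1 the log2 fold change turned to -1.002 ± 1.24 (edgeR adjusted p = 0.651). Without PBS library 4, LLC library 1 and LLC library 3 together it was 2.44 ± 0.59 (edgeR adjusted p = 0.0519, where 7.18% of genes passed).

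Tyrobp, the gene of the DAP12 adaptor (chr7:30413760-30417585), is shared by several receptors of myeloid and natural killer cells. At day 7 it measured 27.9, 27.4, 26.7 and 47.7 CPM in PBS and 27.8, 54.5, 41.5, 43.1 and 27.1 CPM in LLC. The LLC libraries split into 3 above 41 CPM and 2 at the level of PBS libraries 1 to 3, with a log2 fold change of 0.26 ± 0.24 (edgeR adjusted p = 0.814). At day 21 it measured 8.43, 10.1, 7.11 and 47.0 CPM in PBS and 62.1, 39.0, 35.0, 32.7 and 18.5 CPM in LLC. All 5 LLC libraries were above PBS libraries 1 to 3 and 4 of them were below PBS library 4. The log2 fold change was 1.02 ± 0.59 with all libraries (edgeR adjusted p = 0.314). It was 2.11 ± 0.36 without PBS library 4 (edgeR adjusted p = 0.0125), in a fit where 9.3% of genes passed. Of 18 alternative fits (edgeR, DESeq2 or limma), Tyrobp passed at day 21 in 2, both without PBS library 4. In the other 16 the adjusted p ran from 0.132 to 0.552.

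Gpnmb, the lysosomal glycoprotein (chr6:49036546-49070929, 11 exons), was likewise far higher in PBS library 4 of day 21 than in the other PBS libraries. At day 21 PBS gave 20.8, 20.2, 14.1 and 176.5 CPM and LLC gave 118, 83.0, 38.8, 63.9 and 28.5 CPM. All LLC libraries were above PBS libraries 1 to 3 and below PBS library 4. The log2 fold change was 0.18 ± 0.77 with all libraries (edgeR adjusted p = 0.903) and 1.83 ± 0.45 without PBS library 4 (edgeR adjusted p = 0.0407). Of 18 alternative fits (edgeR, DESeq2 or limma), Gpnmb passed at day 21 in 2, both without PBS library 4. In the other 16 the adjusted p ran from 0.283 to 0.96. At day 7 PBS gave 43.7, 39.0, 53.5 and 119.6 CPM and LLC gave 27.6, 42.9, 31.0, 46.6 and 34.9 CPM. The LLC libraries were in the lower range of PBS or under it, with a log2 fold change of -0.80 ± 0.31 (edgeR adjusted p = 0.538, unadjusted p = 0.0235). Without PBS library 4 of day 7 the log2 fold change was -0.31.

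Without PBS library 4 at day 21, therefore, 2 of the 9 markers passed on the higher side (Tyrobp and Gpnmb, with 5.81% of genes) and 1 on the lower side (Fabp5, with 3.49% of genes). Groups did not overlap for 4 of 9 (26.4% of genes), counted after the values had been seen: Trem2, Tyrobp and Gpnmb higher and Fabp5 lower. PBS library 4 was singled out with its high Trem2, Tyrobp and Gpnmb values already seen. In the same fit 7 of 12 general macrophage genes, 6 of 11 resident macrophage genes, 4 of 5 mast cell genes and 4 of 6 progenitor or fibroblast genes also passed on the higher side. Cd163, a scavenger receptor of resident macrophages, was at 2.41 ± 0.20 (edgeR adjusted p = 0.000675). The median log2 fold change was 2.13 for the general macrophage genes and 0.71 for the 9 markers, beside 0.02 over all genes. With all libraries, 4 of 5 mast cell genes had already passed on the higher side. Of the macrophage and the progenitor or fibroblast genes, 0 had. Progenitor or fibroblast scores were -2.06, -1.64 and -2.04 in the 3 low PBS libraries and 0.53 in PBS library 4. The part of this shift in the result was not tested.

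The tetraspanin genes Cd9 (chr6:125460266-125494791) and Cd63 (chr10:128900989-128912822) varied little. Cd9, a surface tetraspanin used to sort these macrophages, had means of 50.8 ± 9.54 (PBS) and 55.8 ± 5.26 CPM (LLC) at day 7, and of 57.2 ± 15.7 and 70.2 ± 13.8 CPM at day 21 (SD, n = 4 and 5). Its log2 fold changes were 0.14 ± 0.12 and 0.27 ± 0.21 (edgeR adjusted p = 0.804 and 0.443). Cd63, a tetraspanin of late endosomes and lysosomes, lay at 199 ± 8.08 and 201 ± 16.5 CPM at day 7 and at 233 ± 39.2 and 253 ± 71.9 CPM at day 21. Its log2 fold changes were 0.02 ± 0.07 and 0.10 ± 0.22 (edgeR adjusted p = 0.977 and 0.808). The groups overlapped for both genes at both days. Counts of Cd9, Cd63 and Fabp5 are less certain than the others, since pseudogene or gene copies over 90% identical to them are annotated in the genome and absent from the tables. Cd9 and Spp1 also overlap other annotated genes.

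Spp1 encodes osteopontin, a secreted protein that binds CD44 and integrins, and lies at chr5:104435118-104441050. At day 7 it measured 9.69, 10.1, 5.54 and 7.37 CPM in PBS and 9.28, 48.5, 9.34, 43.6 and 30.9 CPM in LLC. LLC libraries 2, 4 and 5 were thus at least 30 CPM while LLC libraries 1 and 3 were inside the PBS range. The log2 fold change was 1.80 ± 0.51, with an edgeR adjusted p of 0.401 and an unadjusted p of 0.00456. The authors' deposited table gives a log2 ratio of 1.75 with an FDR of 0.156 for the same comparison. Those 3 LLC libraries also had the highest monocyte scores of day 7, at 1.71, 1.26 and 0.56, against -0.46 to -0.02 in the other 6. Their neutrophil scores were 2.05, 1.04 and 2.33, against -1.76 to -0.37. The part of these cells in the Spp1 values was not tested.

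At day 21 Spp1 measured 8.73, 19.4, 16.1 and 20.6 CPM in PBS and 131, 10.997, 8.38, 3.74 and 6.34 CPM in LLC. LLC library 1 stood far above every other library, while the other 4 LLC libraries were below 3 of the 4 PBS libraries. The log2 fold change was 0.97 ± 1.01 with all libraries (edgeR adjusted p = 0.569) and -1.11 without LLC library 1, so 1 library set its sign. Lgals3, which encodes galectin-3, a sugar-binding protein of phagocytes (chr14:47367751-47386160), did not separate the groups at either day. It ranged from 71.7 to 129.8 CPM in PBS and from 54.0 to 149 CPM in LLC at day 7, and from 63.6 to 211 and from 52.9 to 221 CPM at day 21. Its log2 fold changes were 0.13 ± 0.30 and 0.19 ± 0.49 (edgeR adjusted p = 0.945 and 0.83).

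Fabp5, a chaperone that carries fatty acids inside cells (chr3:10012548-10016607), moved differently from the receptor genes. At day 21 it measured 163, 201, 271 and 174 CPM in PBS and 101, 143, 63.5, 71.2 and 71.5 CPM in LLC. The lowest PBS library was above the highest LLC library. Means were 202 ± 48.4 (PBS) and 90.01 ± 32.7 CPM (LLC; SD, n = 4 and 5), a log2 fold change of -1.19 ± 0.26. The edgeR adjusted p was 0.0691, just outside the threshold of 0.05. The value was past the threshold in DESeq2 (adjusted p = 0.00127), in 1 edgeR fit of all 18 libraries (adjusted p = 0.00423, where 19% of genes passed), without PBS library 4 (edgeR adjusted p = 0.0301) and without LLC library 2 (edgeR adjusted p = 0.0470, where 0.709% of genes passed). Under the other 14 of 18 alternatives it was not, with adjusted p from 0.0754 to 0.29. Among these were 0.158 with the replicate block, 0.29 with the macrophage covariate, 0.0989 without LLC library 1 and 0.079 without PBS library 4, LLC library 1 and LLC library 3 together. The log2 fold changes of Fabp5 in these fits were -1.13, -1.18, -1.19 and -1.16. Few genes passed with the block (2 higher and 0 lower of 13441) or the covariate (1 and 0 of 13564). Without LLC library 1, 21 passed higher and 3 lower of 13430, and in the last fit 7.18% of genes passed. The authors' deposited table gives a log2 ratio of -0.99 with an FDR of 0.0156.

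At day 7 Fabp5 did not separate the groups, with 153, 105, 146 and 96.1 CPM (PBS) beside 164, 153, 122, 115 and 138 CPM (LLC). The log2 fold change there was 0.15 ± 0.15 (edgeR adjusted p = 0.846). The day 21 effect minus the day 7 effect was -1.31 ± 0.32 on the log2 scale (edgeR adjusted p = 0.0701, where 0.415% of 13975 genes passed), and 0.0064 was the adjusted p in DESeq2, where 5.2% passed. Within PBS, Fabp5 was 0.69 ± 0.24 log2 units higher at day 21 than at day 7 (edgeR adjusted p = 0.118), and within LLC the log2 fold change between days was -0.62 ± 0.22 (edgeR adjusted p = 0.138). Both comparisons with day 7 and the day 21 comparison share libraries. Adipocyte scores were -0.18 to 0.59 in PBS and -0.58 to 0.18 in LLC at day 21, and all 7 adipocyte genes had negative log2 fold changes there with a median of -0.28. Their part in the Fabp5 values was not tested.

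Apoe encodes the lipid-carrying apolipoprotein E, also a ligand of TREM2, and lies at chr7:19696109-19699188. Mean levels at day 7 were 3727 ± 293 (PBS) and 3300 ± 383 CPM (LLC), and those of day 21 were 4467 ± 1129 and 4570 ± 999.7 CPM (SD, n = 4 and 5 each). The log2 fold changes were -0.17 ± 0.11 and 0.01 ± 0.26 (edgeR adjusted p = 0.724 and 0.983). The groups overlapped at both days.

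The second question is how each condition changed between days. Within PBS, day 21 against day 7, 0 of 9 markers passed in edgeR, where 3.21% of 13975 genes did, and 0 passed in DESeq2 (7.94% of genes). Of the 9, only Fabp5 was under an unadjusted p of 0.05, where 20.4% of genes were. Groups did not overlap for Fabp5 alone, on the higher side (7.92% of genes). Without day 21 PBS library 4, Trem2 (-3.22 ± 0.93, edgeR adjusted p = 0.0345), Tyrobp (-1.92 ± 0.36, adjusted p = 0.00204) and Gpnmb (-1.80 ± 0.46, adjusted p = 0.0169) passed on the lower side, where 8.5% of genes did. The other 6 members did not pass, and Cd9 had a log2 fold change of 0.00 in that fit. Of the wider lists, 8 of 12 general macrophage genes, 10 of 11 resident macrophage genes and 3 of 10 genes of TREM2 and DAP12 signalling also passed on the lower side there. So did 4 of 5 mast cell genes and 4 of 6 progenitor or fibroblast genes. On the higher side 3 of 7 adipocyte genes passed there, where 490 of 14146 genes did. With all libraries, 4 of 5 mast cell, 3 of 6 progenitor or fibroblast and 1 of 11 resident macrophage genes had already passed on the lower side. The part of these other cells in the marker values was not tested. Trem2, Tyrobp and Gpnmb each passed in 2 of 27 alternative fits, both without day 21 PBS library 4.

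Within LLC, day 21 against day 7, 0 of 9 markers passed in edgeR (1.77% of genes) and 0 in DESeq2 (5.81% of genes), with Fabp5 and Apoe under an unadjusted p of 0.05 (18.6% of genes). Apoe had a log2 fold change of 0.47 ± 0.18 (edgeR adjusted p = 0.166). Its LLC values were 3248, 3214, 3960, 2984 and 3092 CPM at day 7 and 3185, 5504, 4231, 5590 and 4342 CPM at day 21. LLC library 1 alone lay inside the day 7 range, and groups did not overlap for 0 of 9 markers (3.33% of genes). Without that library Apoe passed at 0.57 ± 0.16 (edgeR adjusted p = 0.0463) and Spp1 passed at -1.95 ± 0.49 (edgeR adjusted p = 0.0283), in a fit where 7.44% of genes passed, whereas Spp1 with all libraries was at 0.19 ± 0.78. Without LLC library 2, Fabp5 passed at -0.85 ± 0.19 (edgeR adjusted p = 0.0226), where 4.32% of genes did.

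The day 21 effect minus the day 7 effect was past the edgeR threshold for 0 of 9 markers, where 0.415% of 13975 genes passed. So low a share means that the 0 says little about the markers. Without day 21 PBS library 4 it was past it for Tyrobp (1.87 ± 0.44, edgeR adjusted p = 0.0165), Gpnmb (2.66 ± 0.58, adjusted p = 0.0100) and Fabp5 (-1.38 ± 0.34, adjusted p = 0.0196), where 8.64% of genes passed. Tyrobp and Gpnmb had the larger LLC over PBS value at day 21, and Fabp5 the smaller. In that fit 7 of 12 general macrophage genes, 7 of 11 resident macrophage genes, 4 of 5 mast cell genes and 4 of 6 progenitor or fibroblast genes passed on the higher side too. Of these lists, only the mast cell genes had already passed with all libraries, 4 of 5. The part of these lists in the marker values was not tested. Of 26 alternative fits, Tyrobp and Gpnmb each passed in 2 and Fabp5 in 4.

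**Figure D3:**
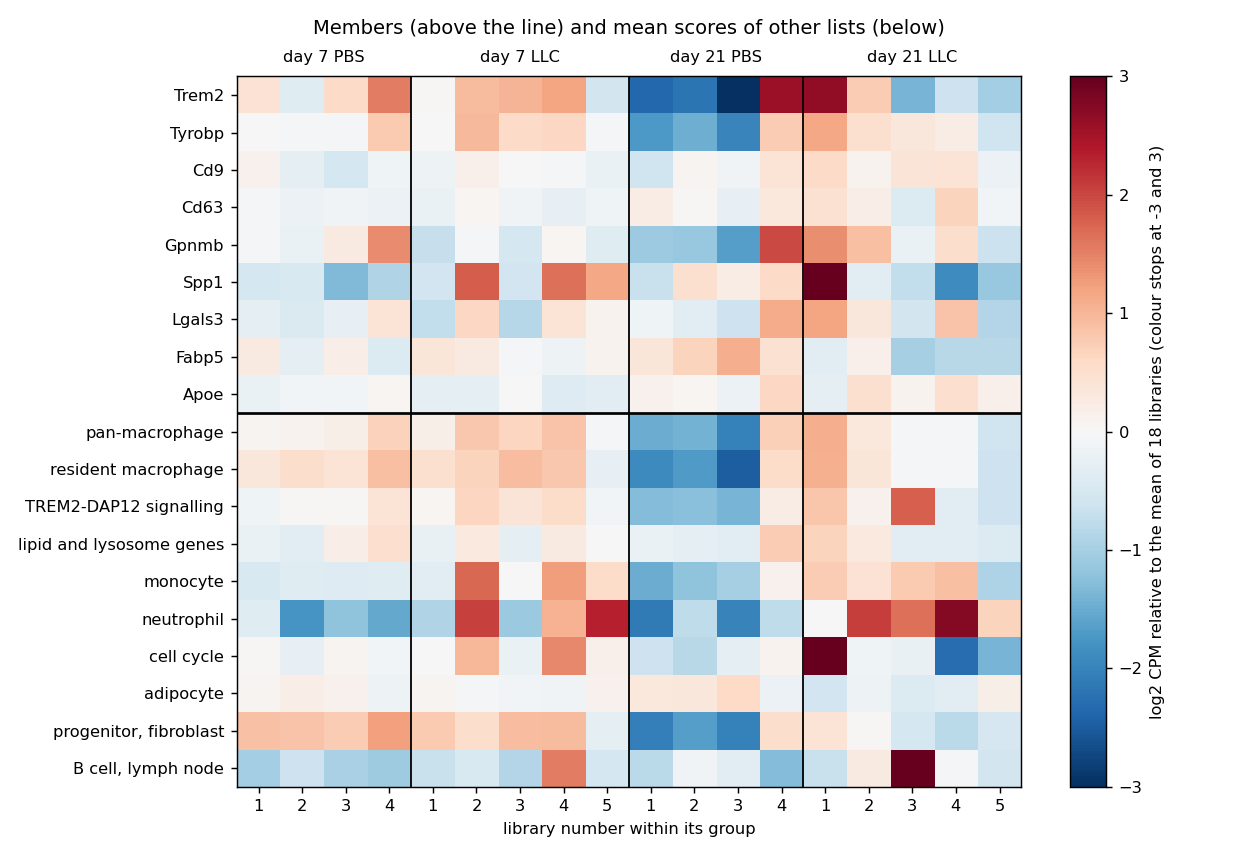
The 9 markers (above the line) and mean scores of other gene lists (below) in each of the 18 libraries, as log2 CPM relative to the mean of all libraries, with colours stopping at -3 and 3. Trem2, Tyrobp and Gpnmb share their low cells in day 21 PBS libraries 1 to 3 with the macrophage and progenitor scores, while Fabp5 does not.

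The 9 markers did not vary as 1 block. With each group's mean removed, Trem2 followed the pan-macrophage score with a Pearson r of 0.963 over the 18 libraries, Tyrobp with 0.981 and Gpnmb with 0.943. Without day 21 PBS library 4 and LLC library 1 these were 0.85, 0.937 and 0.794 over 16 libraries. Lgals3 (0.756) and Cd9 (0.633) followed the score less closely over 18 libraries. Cd63 (0.467), Spp1 (0.466), Apoe (0.364) and Fabp5 (-0.094) followed it least. That order did not hold over the 16 libraries, where Lgals3 was at 0.581, Apoe at 0.529, Cd9 at 0.314, Cd63 at 0.28, Spp1 at 0.229 and Fabp5 at -0.101. For Apoe the sign also changed, to -0.156 over 17 libraries without PBS library 4. These are descriptions over libraries that share groups and scaling. Trem2 also had an r of 0.912 with the progenitor or fibroblast score, so the macrophage score was not the only one it followed.

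The genes whose centred level was most like that of Trem2 over 18 libraries, out of 13974 ranked, were Mrc1 (r = 0.981), Fcgr2b (0.972), Hacd4 (0.966), Fcgr3 (0.964) and Wfdc17 (0.963). Mrc1 is the mannose receptor of resident macrophages, and Fcgr2b and Fcgr3 are receptors for antibody. Without day 21 PBS library 4 the values were 0.958, 0.937, 0.922, 0.920 and 0.916 over 17 libraries. Gpnmb ranked 69 and Tyrobp 86 in that order. Fabp5 ranked 5964.

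Spp1 followed another score. Its r with the cell cycle score (Mki67, Top2a, Ccnb1, Cdk1 and Birc5) was 0.907 over 18 libraries and 0.707 over 16 libraries without day 21 PBS library 4 and LLC library 1. The 2 highest Spp1 values of day 7, in LLC libraries 2 and 4, came with the 2 highest cell cycle scores of that day, 0.99 and 1.45. LLC library 5 of day 7, with 30.9 CPM of Spp1, had a score of 0.16. The highest Spp1 and the highest cell cycle score of the series, 131 CPM and 3.46, were in the same library, LLC 1 of day 21. The lowest of both, 3.74 CPM and -2.28, were in LLC library 4 of day 21.

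**Figure D4:**
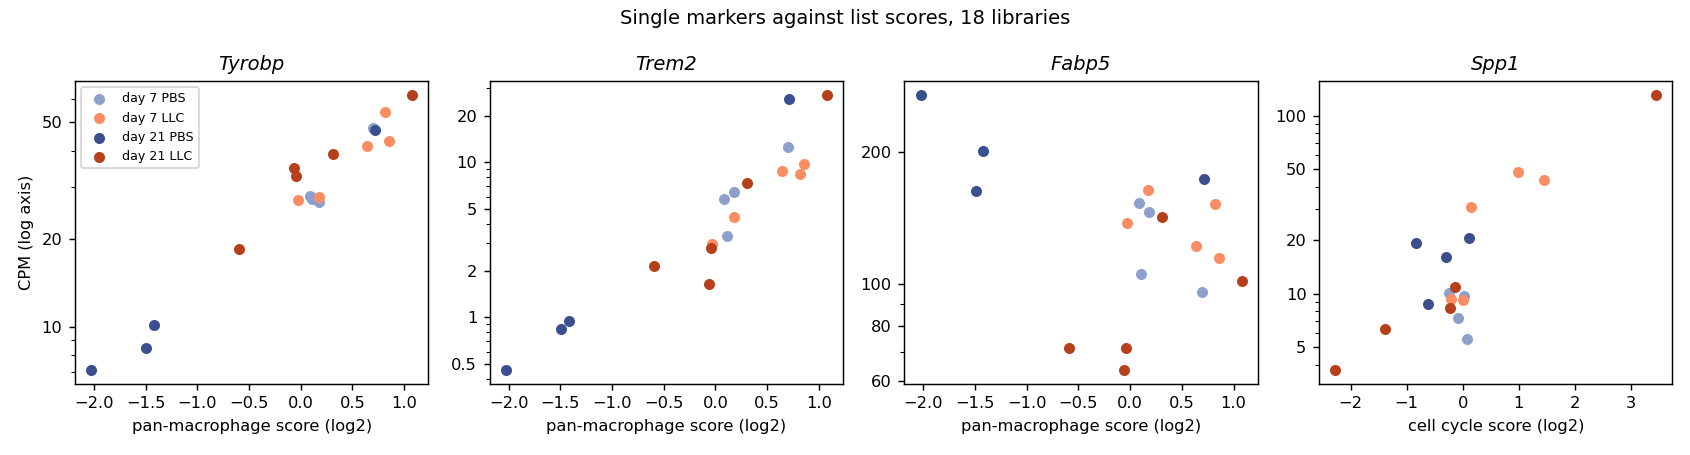
Level in CPM (log axis) of Tyrobp, Trem2 and Fabp5 against the pan-macrophage score, and of Spp1 against the cell cycle score, with 1 point per library. Tyrobp and Trem2 rise along the score through all 4 groups, Fabp5 does not, and Spp1 is highest where the cell cycle score is 3.46.

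To set the markers against macrophage content, the mean log2 CPM of the 12 general macrophage genes was subtracted from each marker in the same library. Tyrobp then hardly differed between groups, at -1.20 ± 0.13 and -1.18 ± 0.15 at day 7 (PBS and LLC) and -1.14 ± 0.13 and -0.93 ± 0.15 at day 21 (log2, SD), although its CPM ranged from 7.11 to 62.1. Trem2 relative to those genes kept a wide range at day 21, from -4.69 to -1.94 in PBS and from -5.04 to -2.22 in LLC. PBS libraries 1 to 3 were at -4.48, -4.41 and -4.69, on 14, 15 and 7 counts, and LLC libraries 3 to 5 at -5.04, -4.34 and -4.15. PBS library 4 and LLC library 1 were the highest of their groups. At day 7 the lowest values were -4.23 in PBS and -4.27 in LLC, so a low relative level was not confined to PBS libraries 1 to 3.

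Gpnmb relative to macrophage genes separated groups in 2 of 4 comparisons. At day 7 it was -0.34 ± 0.45 in PBS and -1.24 ± 0.30 in LLC, with no overlap, as for 0.677% of genes on that side, though the nearest libraries were at -0.73 and -0.76. In LLC it was -0.18 ± 0.34 at day 21, wholly above day 7, as for 0.401% of genes. A fit with the pan-macrophage score as a covariate gave Gpnmb a log2 difference of 1.16 ± 0.20 between days in LLC (edgeR adjusted p = 0.0119, where 3.61% of genes passed), and -0.96 ± 0.22 at day 7 (edgeR adjusted p = 0.284). In PBS, Spp1, Lgals3 and Apoe relative to macrophage genes were wholly higher at day 21 than at day 7, as for 2.48% of genes. Their CPM did not rise by the test, and the macrophage genes were low in 3 of those 4 libraries. At day 21 LLC and PBS overlapped on this scale for every marker, but the share of all genes that did so is not given. Fabp5 there had the largest difference, -2.40. Its log2 fold change in CPM was -1.19, and the subtracted macrophage genes were low in PBS libraries 1 to 3.

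**Figure D5:**
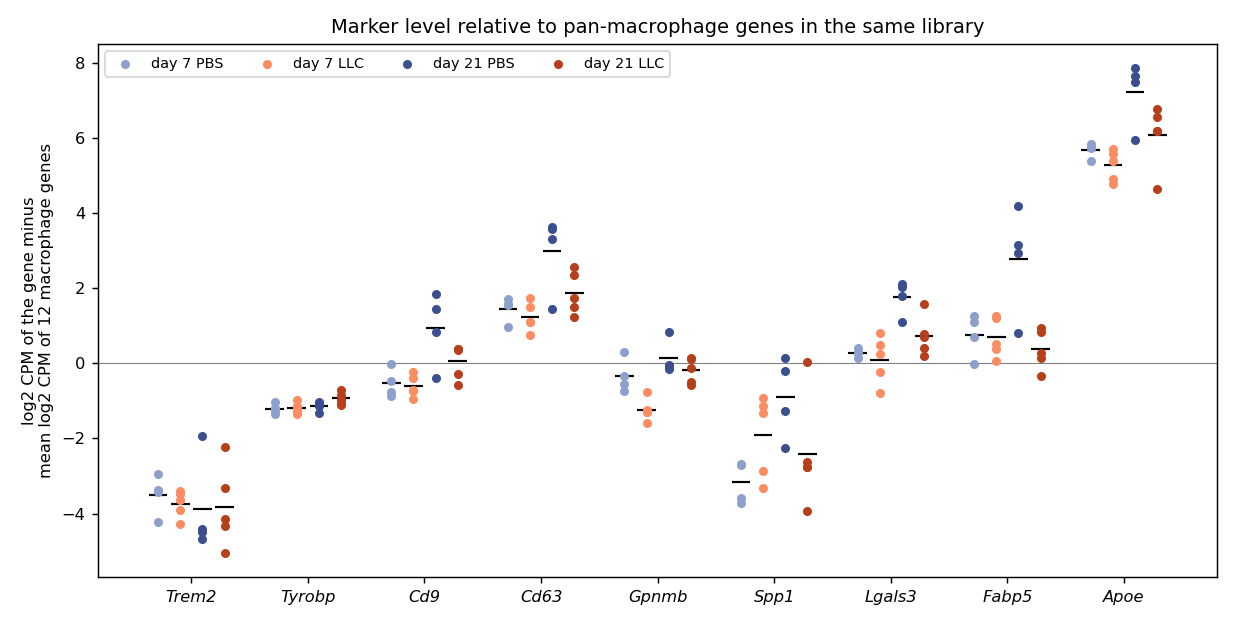
log2 CPM of each marker minus the mean log2 CPM of 12 general macrophage genes in the same library, by group, with 1 point per library and a bar at the group mean. Tyrobp stays near -1 in all groups, and Gpnmb in LLC lies higher at day 21 than at day 7.

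The genes around the markers in the pathway were examined from lists, of which all members were in the tables. Of 10 genes of TREM2 and DAP12 signalling, none passed in edgeR at either day, and 10 of 10 at day 7 and 9 of 9 tested at day 21 had positive log2 fold changes, with medians of 0.24 and 1.54. Plcg2, the phospholipase that acts behind the receptor, had the largest of the 3 values named by rule, 2.48 ± 0.89 at day 21 (edgeR adjusted p = 0.144). Ptpn6 (2.26 ± 0.93) and Inpp5d (1.54 ± 0.57), phosphatases that restrain such signalling, had edgeR adjusted p of 0.185 and 0.154. LLC library 3 of day 21, with its high lymph node score, had the highest signalling score, 1.78. LLC libraries 1, 2, 4 and 5 of day 21 were at 0.83, 0.13, -0.35 and -0.62. Several of these genes are also expressed in B cells. The part of B cells in the signalling values was not tested, and no fit of this list without LLC library 3 is given. Inpp5d passed without PBS library 4 (2.32 ± 0.49, edgeR adjusted p = 0.0244).

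Of 18 other lipid and lysosome genes of these macrophages, 9 had positive and 9 negative log2 fold changes at day 21 and none passed in edgeR. The 3 with the smallest p were all lower in value: Plin2, which coats lipid droplets (-0.98 ± 0.20, edgeR adjusted p = 0.0634), Npc2, which moves cholesterol out of lysosomes (-0.59 ± 0.14, adjusted p = 0.0751), and Nr1h3, the sterol-sensing receptor LXR alpha (-0.39 ± 0.13, adjusted p = 0.138). Without PBS library 4, 1 of the 18 passed on each side: Plin2 lower (-1.05 ± 0.21, edgeR adjusted p = 0.0215) and Lgmn, a lysosomal protease, higher (2.22 ± 0.54, adjusted p = 0.0373). Among 9 receptors of osteopontin and apolipoprotein E, none passed at day 21; Vldlr had a log2 fold change of -0.80 ± 0.19 (edgeR adjusted p = 0.0751) and Itgb5 of -0.63 ± 0.16 (adjusted p = 0.0788), and Lrp1 of 0.57 ± 0.20 (adjusted p = 0.138). Without PBS library 4, Vldlr (-0.88 ± 0.20, edgeR adjusted p = 0.0295) and Itgb5 (-0.67 ± 0.17, adjusted p = 0.0473) passed on the lower side and Itgb3, an integrin subunit, on the higher (3.11 ± 0.33, adjusted p = 0.00135). Lgmn and Itgb3 are named after their values were seen. None of the 4 MiT and TFE factors, known regulators of Gpnmb and lysosomal genes, passed at day 21, where Mitf was at 0.83 ± 0.33 (edgeR adjusted p = 0.172). Tfec passed without PBS library 4 (4.20 ± 0.90, edgeR adjusted p = 0.0254), at group means of 1.02 CPM in PBS and 3.21 CPM in LLC over all libraries.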

How the data were processed

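RNA-seq of inguinal fat was compared in 18 libraries. The deposited counts were taken as RSEM expected counts that the authors had rounded, since 100% of values were whole and the submitters' processing notes name RSEM, fastp 0.23.0 and mm10/GRCm38. No label names the aligner or annotation. The TPM values were made by the authors per transcript length and library total. The authors' deposited log2 ratios and p-values were copied only where named.

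Counts were tested in edgeR 4.0.16 (filterByExpr, TMM, quasi-likelihood, two-sided, Benjamini-Hochberg over all genes, threshold 0.05), on the libraries of 1 day within a day and on all 18 libraries across days. Errors of log2 fold changes are standard errors. Alternatives used DESeq2 1.42.0, limma 3.58.1 on log2 TPM, other scaling or filters, a macrophage covariate, a replicate block and fits without single libraries. The code was tested on simulated data. Gene positions come from GENCODE on GRCm38, 1-based.

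The members and lists were chosen with earlier results of these data known. The named genes are the 9 members, up to 3 genes per list with the smallest unadjusted p at day 21, and the 5 genes most correlated with Trem2. Libraries with the same number deviated together at day 7 (r = 0.255, 0.149, 0.558 and 0.18 for numbers 1 to 4), which meets the criterion of every r over 0.1, but no label says that the numbers pair samples. Some libraries of unlike number were as close: PBS 2 with LLC 1 (0.273), PBS 4 with LLC 2 (0.198) and PBS 1 with LLC 2 (0.191). PBS 3 and LLC 3, which had the largest r, also had the highest skeletal muscle scores of day 7, 7.13 and 5.15. The part of muscle in that r was not tested. The labels do not tie replicates to separate animals: p-values then reflect only how far these libraries differ, possibly for technical reasons.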

Additional observations from a re-analysis of the deposited data

Results flagged for a closer look

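Of 36 sets of libraries (9 genes in 4 groups), 8 held a library whose gap to its nearest neighbour was large for the range of its group by Dixon's test at 95%, where chance gives about 1 in 20. Library 4 of day 21 PBS accounted for 4 of these, being high in Trem2 (25.7 CPM), Tyrobp (47.0 CPM), Gpnmb (176.5 CPM) and Lgals3 (210.9 CPM). LLC library 1 of day 21 was high in Trem2 (27.3 CPM) and Spp1 (131 CPM). Tyrobp was high in PBS library 4 of day 7 (47.7 CPM), and Apoe was high in LLC library 3 of day 7 (3960 CPM).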

How the results depend on the processing

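Over the 9 genes and 5 comparisons, 45 log2 fold changes were recomputed under the alternatives, which gave 1035 values. Of these 911 kept their direction and did not newly pass, 28 kept their direction and newly passed, and 96 changed sign, of which 57 came from leaving out 1 library. Spp1 in DESeq2 at day 21 kept its direction but had no p-value. Of the 45 values, 22 kept their sign throughout, those of Fabp5 in all 5 comparisons among them. Only 2 values that changed sign were also past the threshold, both of Spp1 between days in LLC. Within day 7, 0.692% of genes passed in DESeq2 and at most 3 genes under any other setting. The number of markers passing there was 0 under every setting, which says little about the markers. At day 21 it was 1 in DESeq2, 1 in 1 fit of all 18 libraries and 2 with day 21 PBS library 4, LLC library 1 and LLC library 3 left out together (Tyrobp and Gpnmb, where 7.18% of genes passed), and 0 to 3 leaving out 1 library. Between days in PBS it was 4 without those 3 libraries (Trem2, Tyrobp, Gpnmb and Fabp5, where 24.4% of genes passed), and 0 to 3 leaving out 1 library. Between days in LLC it was 2 without them (Spp1 and Apoe, where 12.8% of genes passed), 1 with the macrophage covariate and 0 to 2 leaving out 1 library. For the difference between days of the tumour effect it was 1 in DESeq2, 4 without them (Tyrobp, Gpnmb, Spp1 and Fabp5, where 8.49% of genes passed) and 0 to 3 leaving out 1 library.

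The pan-macrophage covariate turned the sign of these log2 values: Tyrobp -0.0041, Lgals3 -0.050 (LLC over PBS at day 7), Trem2 -1.17, Cd9 -0.016, Cd63 -0.12, Gpnmb -0.69, Spp1 -1.73, Lgals3 -0.63, Apoe -0.14 (LLC over PBS at day 21), Trem2 1.04, Tyrobp 0.091, Gpnmb 0.85 (day 21 over day 7 in PBS), Tyrobp 0.26, Spp1 -0.056 (day 21 over day 7 in LLC) and Trem2 -0.61, Cd9 -0.069, Cd63 -0.053, Lgals3 -0.60 (the day difference of the tumour effect). On log2(TPM + 1) in limma these turned: Cd63 -0.0050 (LLC over PBS at day 7), Spp1 -0.14 (LLC over PBS at day 21), Cd9 -0.059, Lgals3 -0.058 (day 21 over day 7 in PBS) and Trem2 -0.41, Spp1 -0.83 (day 21 over day 7 in LLC). On log2(TPM + 0.1) they were Cd63 -0.0050 (LLC over PBS at day 7), Spp1 -0.21 (LLC over PBS at day 21), Cd9 -0.060, Lgals3 -0.059 (day 21 over day 7 in PBS) and Trem2 -0.51, Spp1 -0.91 (day 21 over day 7 in LLC). Without the 3 libraries together these turned: Spp1 -1.07 (LLC over PBS at day 21), Lgals3 -0.23 (day 21 over day 7 in PBS) and Trem2 -0.73, Spp1 -1.999 (day 21 over day 7 in LLC). With the replicate block these turned: Trem2 0.23, Lgals3 -0.00022 (LLC over PBS at day 7), Spp1 -0.38 (LLC over PBS at day 21) and Tyrobp 0.063, Spp1 -0.11 (day 21 over day 7 in LLC). The block left 0 members past the threshold in every comparison. Within a day this says little about the markers, since only 1 of 13374 genes passed at day 7 and 2 of 13441 at day 21. Of 13913 genes, 93 passed higher and 392 lower between days in PBS, 16 and 64 in LLC, and 31 and 44 for the day difference of the tumour effect. At day 21 same-numbered libraries had r of -0.234, 0.35, 0.113 and -0.244, so they share only a number there. The cause of these changes of sign was not tested.

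Leaving out 1 library turned the sign for these, with their lowest and highest log2 values: Trem2 -0.26 to 0.41, Cd63 -0.034 to 0.043, Lgals3 -0.067 to 0.35 (LLC over PBS at day 7), Trem2 -1.002 to 3.43, Cd63 -0.038 to 0.25, Gpnmb -0.15 to 1.83, Spp1 -1.11 to 1.26, Lgals3 -0.068 to 0.71, Apoe -0.10 to 0.19 (LLC over PBS at day 21), Trem2 -3.22 to 0.42, Gpnmb -1.80 to 0.35, Lgals3 -0.25 to 0.50 (day 21 over day 7 in PBS), Trem2 -0.99 to 0.52, Tyrobp -0.32 to 0.12, Spp1 -1.95 to 0.47 (day 21 over day 7 in LLC) and Trem2 -0.9951 to 3.49, Cd63 -0.031 to 0.20, Lgals3 -0.23 to 0.61 (the day difference of the tumour effect). Trem2 rested on 7 to 15 counts in PBS libraries 1 to 3 of day 21, so its fold there is known only roughly.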
